A study of Mus musculus with 24 samples.

Results

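The complement and coagulation factors described here are 40 genes of plasma proteins, chosen by name: 19 of complement and 21 of clotting, its inhibitors and fibrinolysis. All 40 were among the 52636 genes of the count files and all 40 were among the 15490 genes that had enough reads to be tested, although Masp1 and Cfb had few. They were measured in polysome-associated RNA, that is, poly(A)-selected messenger RNA recovered with several ribosomes on it, from the livers of C57BL/6 mice aged 5 months. Calorie restricted (CR) mice had received 30% fewer calories for 3 months, starting at 2 months of age, and control mice ate ad libitum (AL). Livers were collected at zeitgeber time (ZT) 2, 6, 10, 14, 18 and 22 h, which gave 12 groups of diet and time with 2 libraries each, 24 libraries in all. Feeding times of the CR mice do not appear in the labels. Only polysome-associated RNA was analysed, and the amount of a transcript and its loading onto polysomes cannot be told apart. The labels do not say that the libraries of a group came from separate animals, so p-values rest on a spread between libraries that may be technical. In bulk liver, fewer cells of a type and less RNA per cell cannot be told apart either.

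Complement is a chain of plasma proteins that marks and punctures microbes. Antibody (through C1), sugars (through the mannose-binding lectins) or spontaneous turnover start it, all routes meet at the cleavage of C3, and C5, C6, C7, C8 and C9 then assemble into the membrane attack complex. Clotting is a second chain of proteases that ends with thrombin turning fibrinogen into fibrin, held in check by inhibitors such as antithrombin and protein C, and plasmin dissolves the clot. Hepatocytes make most of these proteins, and the level of several is known to rise in the acute phase response to inflammation.

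Each library held 13.8 to 60.8 M counted reads (M, mega), of which ribosomal RNA made up 1.02% to 62.2%, which left 5.64 to 59.6 M other reads. Levels are given as CPM, counts scaled to library size with edgeR's TMM factors, and differences are log2 of CR over AL with their standard error (SE). A gene is said to have risen or fallen when its adjusted p was below 0.05 in edgeR's quasi-likelihood (QL) test, adjusted after Benjamini and Hochberg over all 15490 genes. The 14 hepatocyte markers, Alb (albumin) among them, summed to 45765 to 127242 CPM in AL and 67673 to 160891 CPM in CR, which fits the label of liver. Some libraries stood apart. AL ZT22 2C held 11604 CPM of Saa1, an acute phase gene, and AL ZT10 1 held 1254 CPM, against 13.7 to 812 CPM in the other 10 AL libraries and 6.96 to 87 CPM in CR. By the sum of 18 acute phase markers, however, AL ZT14 2 (15807 CPM, 812 CPM of Saa1) lay above AL ZT10 1 (14486 CPM). In CR ZT6 2 and CR ZT18 2 the summed level of 15 genes that are higher in male than in female liver was 7468 and 7755 CPM, against 366 to 1176 CPM in the other 10 CR libraries and 5800 to 26807 CPM in AL.

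The 4 genes with the largest falls encode parts of the membrane attack complex. They are C6 (ENSMUSG00000022181.15, GRCm38 chromosome 15, 4727175 to 4814967, plus strand), C8a (ENSMUSG00000035031.15, chromosome 4, 104815679 to 104876398, minus strand), C8b (ENSMUSG00000029656.13, chromosome 4, 104766317 to 104804548, plus strand) and C9 (ENSMUSG00000022149.17, chromosome 15, 6445327 to 6498751, plus strand). Their promoters are shown because the genes moved together, followed by those of the lectin genes Mbl1 and Mbl2, which moved in opposite directions. Each window runs from 250 bases before to 50 bases after the RefSeq start site (GRCm38.p6), 5′ to 3′ along the gene. Capitals mark matches on either strand to any of 6 motifs searched, which are STAT (TTCNNNGAA), E-box (CACGTG), D-box (TTANGTAA), C/EBP (TTGCNNAA), the HNF1 core (GTTAAT) and HNF4 (CAAAGTCCA).
C6, chr15:4726960-4727259, plus strand: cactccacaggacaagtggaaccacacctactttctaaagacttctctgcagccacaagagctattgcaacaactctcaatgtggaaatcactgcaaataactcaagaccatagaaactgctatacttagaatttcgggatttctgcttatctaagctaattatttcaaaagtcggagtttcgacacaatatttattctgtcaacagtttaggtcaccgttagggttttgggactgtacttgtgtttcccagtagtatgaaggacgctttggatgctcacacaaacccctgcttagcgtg
C8a, chr4:104876349-104876648, minus strand: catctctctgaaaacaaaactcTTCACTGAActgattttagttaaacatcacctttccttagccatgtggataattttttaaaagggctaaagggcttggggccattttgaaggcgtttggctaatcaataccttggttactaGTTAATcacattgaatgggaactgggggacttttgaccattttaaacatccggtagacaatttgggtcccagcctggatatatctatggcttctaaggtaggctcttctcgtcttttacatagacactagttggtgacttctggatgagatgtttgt
C8b, chr4:104766067-104766366, plus strand: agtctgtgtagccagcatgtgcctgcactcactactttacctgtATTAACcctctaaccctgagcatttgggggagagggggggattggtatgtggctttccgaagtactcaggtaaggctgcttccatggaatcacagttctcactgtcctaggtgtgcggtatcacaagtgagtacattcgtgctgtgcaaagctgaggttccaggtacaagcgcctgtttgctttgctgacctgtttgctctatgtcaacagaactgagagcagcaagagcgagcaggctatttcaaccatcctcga
C9, chr15:6445096-6445395, plus strand: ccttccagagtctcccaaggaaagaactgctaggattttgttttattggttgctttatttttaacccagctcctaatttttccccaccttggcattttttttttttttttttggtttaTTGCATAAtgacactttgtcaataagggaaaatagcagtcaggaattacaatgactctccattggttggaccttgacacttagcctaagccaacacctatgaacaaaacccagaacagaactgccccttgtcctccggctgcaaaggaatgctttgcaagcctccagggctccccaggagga
Mbl1, chr14:41151206-41151505, plus strand: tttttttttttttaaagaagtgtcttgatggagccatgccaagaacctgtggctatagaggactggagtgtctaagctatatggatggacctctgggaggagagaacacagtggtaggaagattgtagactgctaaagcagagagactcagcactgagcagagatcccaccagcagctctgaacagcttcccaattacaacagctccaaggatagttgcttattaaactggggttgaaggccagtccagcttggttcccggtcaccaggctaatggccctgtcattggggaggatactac
Mbl2, chr19:30232678-30232977, plus strand: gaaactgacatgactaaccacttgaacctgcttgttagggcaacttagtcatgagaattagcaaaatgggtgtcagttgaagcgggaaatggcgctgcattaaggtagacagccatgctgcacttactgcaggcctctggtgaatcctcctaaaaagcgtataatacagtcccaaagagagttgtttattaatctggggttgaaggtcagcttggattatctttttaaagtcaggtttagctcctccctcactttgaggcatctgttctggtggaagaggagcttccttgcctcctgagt

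No motif was shared by the 4 terminal complement promoters. C8a held a STAT match (first base 228 before the start site) and an HNF1 core (107 before), C8b an HNF1 core on the opposite strand (206 before) and C9 a C/EBP match (132 before). The C6, Mbl1 and Mbl2 windows held no match to any of the 6 letters searched, which describes these windows only. Over the 32 of 40 genes with a window in the RefSeq table, the HNF1 core occurred in 34.4% (7.1% of all 32851 windows), C/EBP in 34.4% (10.8%), STAT in 25% (8.3%) and the D-box in 3.12% (2.32%, F13b). E-box and HNF4 letters occurred in 0 of the 32, against 7.15% and 0.475% of all windows. Fga and Fgb, neighbouring genes of 2 fibrinogen chains, each held STAT, C/EBP and HNF1 core matches. No motif contains another, and a match is a description of sequence, not of binding.

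Averaged over the 6 time points, 14 of the 40 genes changed between the diets. Of these, 3 rose in CR (C3, Kng1 and Mbl2), where 5.6% of all tested genes rose, and 11 fell (C6, C8a, C8b, C9, C4bp, F11, Mbl1, Masp2, Cpb2, C1s1 and C2), where 7.05% of all tested genes fell. The changes lay mostly in complement: 2 of its 19 genes rose and 9 fell, with a median log2 difference of -0.40, whereas 1 of the 21 clotting and fibrinolysis genes rose and 2 fell, with a median of 0.10. The median over all tested genes was -0.02. All 14 had the same sign of difference at each of the 6 time points. They were called on the mean of these same differences, so this agreement is partly built in. Its share among all called genes was not counted. The 2 diets did not overlap in C8b, C9, C4bp and F11, all with 12 CR libraries below 12 AL libraries, which held for 0.174% of all tested genes. The opposite, every CR library above every AL library, held for 0 of the 40 and 0.11% of all tested genes.

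**Figure D1:**
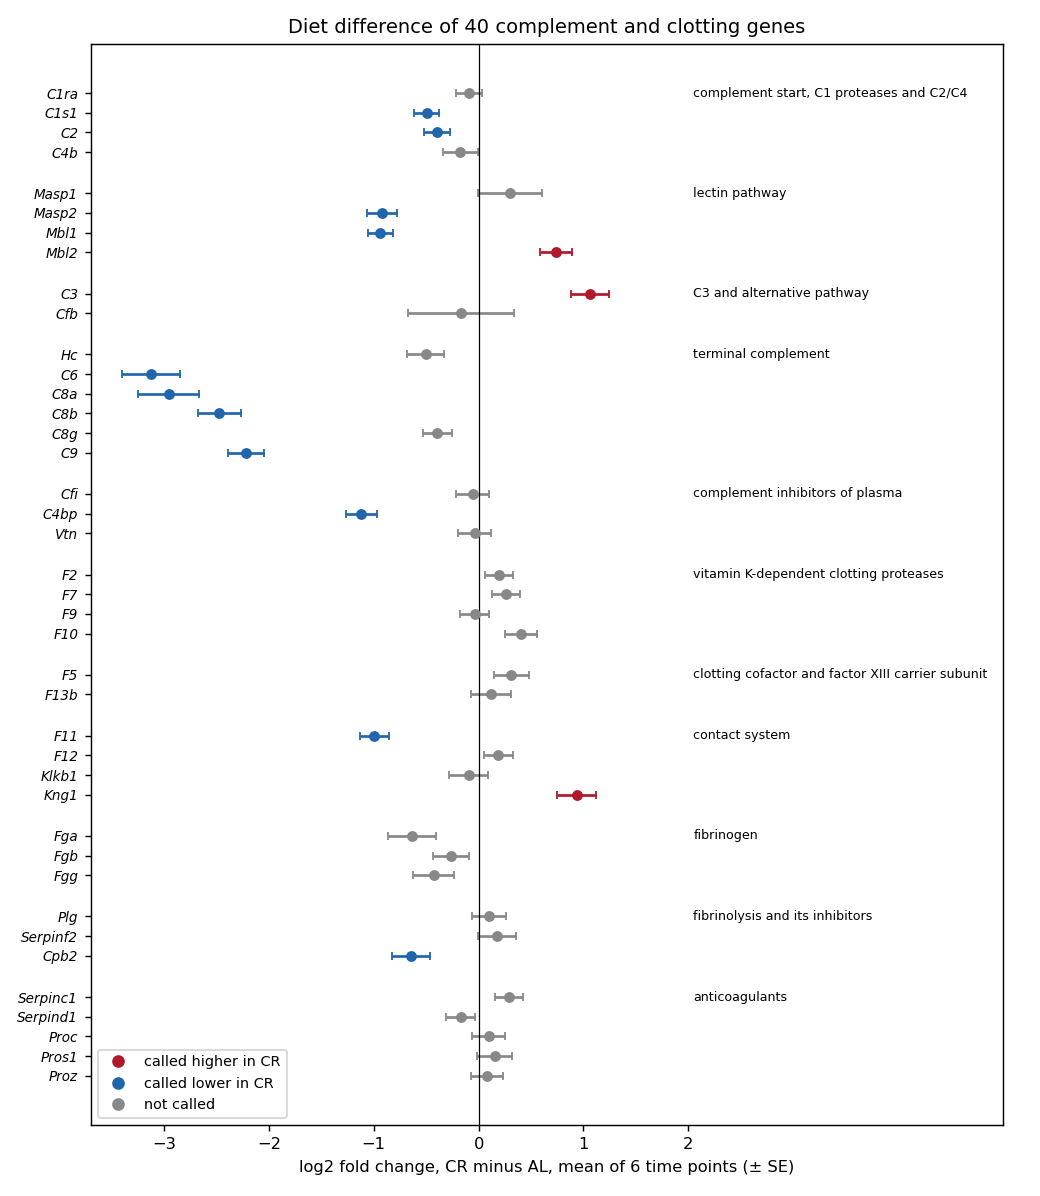
Difference between the diets averaged over 6 time points for the 40 genes (log2 CR over AL, x axis, points with SE bars), grouped by role on the y axis. C6, C8a, C8b and C9 sit between -3.13 and -2.22, far left of the other members of their group.

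The terminal complement genes split into a group that fell steeply and a pair that did not pass the test. C6, which binds C5b to start the attack complex, ranged over 75.2, 154 and 203 CPM in AL (lowest, median, highest of 12 libraries) and 5.54, 11.2 and 77.1 CPM in CR. CR ZT18 2 (77.1 CPM) lay just above the lowest AL library and CR ZT6 2 (70.7 CPM) just below it, and the other 10 CR libraries held at most 14 CPM. C6 fell by 3.13 ± 0.28 log2 units (SE), 8.74-fold, and its edgeR adjusted p (QL test) was 4.67e-08.

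C8a and C8b encode the alpha and beta chains of C8, which inserts into the target membrane. C8a ranged over 163, 358 and 856 CPM in AL and 15.1, 42.7 and 209 CPM in CR. The ranges met only through CR ZT6 2 (209 CPM), since the next highest CR library, CR ZT18 2, held 110 CPM. C8a fell by 2.96 ± 0.29 log2 units (7.77-fold, edgeR adjusted p 2.5e-07). C8b ranged over 83, 160 and 309 CPM in AL and 15, 27.9 and 70.9 CPM in CR, and its ranges did not overlap. C8b fell by 2.47 ± 0.21 log2 units (5.55-fold, edgeR adjusted p 2.71e-08). The gene of the third chain, C8g, a lipocalin bound to C8a, was at 399, 801 and 1627 CPM in AL and 361, 626 and 1334 CPM in CR. The C8g ranges overlapped almost wholly, and its difference of -0.39 ± 0.14 did not pass the test (edgeR adjusted p 0.0723). C8g passed with DESeq2 (-0.36, adjusted p 0.0381) and with edgeR without AL ZT22 2C (-0.46, adjusted p 0.0345) or without CR ZT10 1 (-0.45, adjusted p 0.0424).

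C9, whose copies form the ring of the pore, ranged over 243, 415 and 655 CPM in AL and 36.6, 88.8 and 188 CPM in CR, again with no overlap. It fell by 2.22 ± 0.17 log2 units (4.66-fold), the smallest adjusted p of the 40 genes (edgeR QL test, 7.33e-09). Hc, the gene of C5, was at 177, 389 and 923 CPM in AL and 176, 258 and 558 CPM in CR. Its difference of -0.50 ± 0.18 did not pass (edgeR adjusted p 0.0649). It passed with 4 single libraries left out in turn, AL ZT6 1 (-0.58, adjusted p 0.0325), AL ZT18 1 (-0.56, adjusted p 0.042), AL ZT22 2d (-0.59, adjusted p 0.0241) and CR ZT10 2 (-0.61, adjusted p 0.015), and with DESeq2 (-0.47, adjusted p 0.044).

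**Figure D2:**
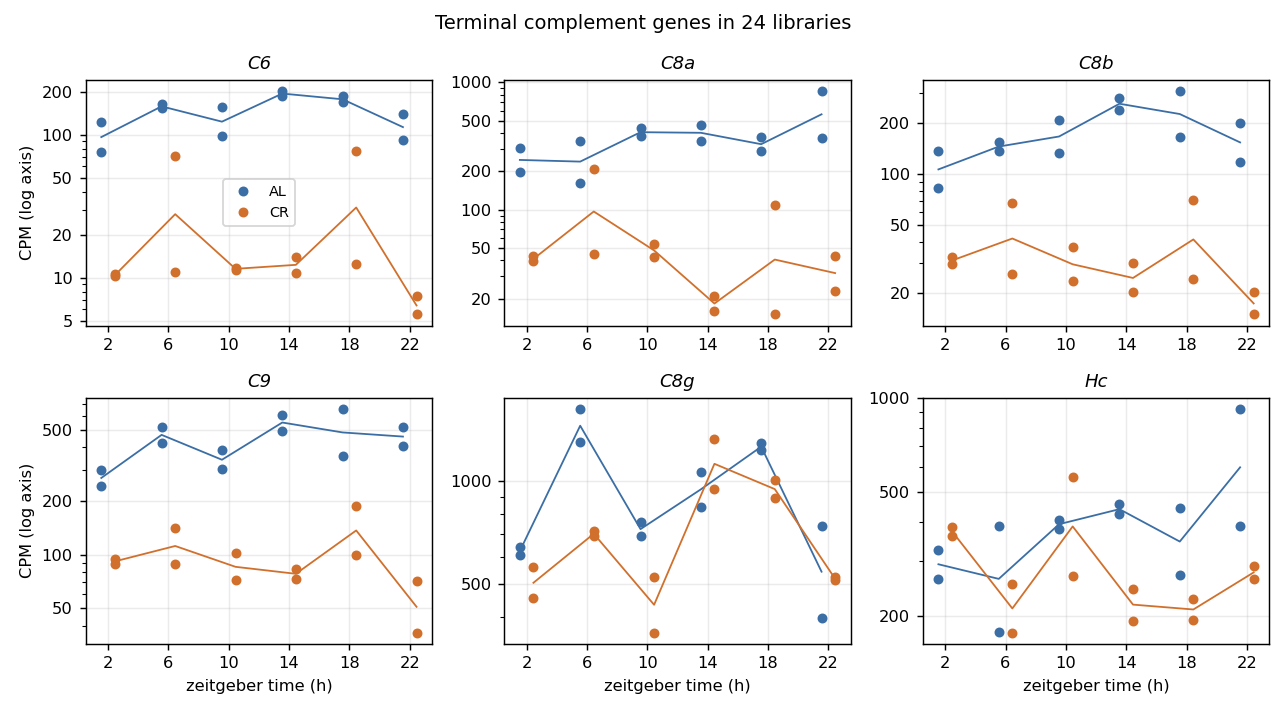
Levels of 6 terminal complement genes (CPM, log axis) by zeitgeber time, 1 point per library and lines through the geometric mean of the 2 libraries of a group, AL in blue and CR in orange. The geometric means of C6, C8a, C8b and C9 stay lower in CR at each time point, with CR ZT6 2 and CR ZT18 2 above the other CR libraries. For C8a the points overlap at ZT6, where CR ZT6 2 (209 CPM) lies above AL ZT6 1 (163 CPM). C8g and Hc overlap between the diets.

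The ratios between genes of the attack complex, from levels divided by exon length (CPM per kilobase), are given as a description without a test. C8g over C8a had a median of 6.21 in AL (1.14 to 24.2) and 31 in CR (8.06 to 155). C8g over C8b went from 8.17 (3.38 to 20.3) to 40.7 (16.5 to 80.1). Hc over C9 went from 0.37 (0.17 to 0.73) to 1.18 (0.42 to 3.18), and C9 over C6 from 4.38 (2.96 to 6.17) to 10.3 (2.77 to 13.4). C8a over C8b, the pair of chains that both fell, overlapped widely, at 1.56 (0.65 to 2.98) in AL and 1.05 (0.44 to 2.16) in CR. In CR ZT6 2 and CR ZT18 2 the C9 over C6 ratio was 2.77 and 3.39, inside or just under the AL range, and in the other 10 CR libraries it was 8.27 to 13.4.

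These 2 CR libraries were the nearest to AL in 7 of the 14 changed genes, namely Mbl1, Mbl2, C3, C6, C8a, C8b and C9. How often this held among all called genes was not counted, so it is not read as particular to complement. Only 1 of them was among the nearest 2 in Masp2 and Kng1, and neither was in C1s1, C2, C4bp, F11 and Cpb2. Cpb2, which fell in CR, was lowest in CR ZT6 2 (109 CPM) and CR ZT18 2 (154 CPM), the farthest from AL. The male-biased list was nearest to AL in CR ZT6 2 and CR ZT18 2, as given above. The female-biased list was not alike in both: its sum was 66.1 CPM in CR ZT6 2 and 536 CPM in CR ZT18 2, against 505 to 1573 CPM in the other 10 CR libraries and 21.8 to 37.3 CPM in AL. On the diet average, 15 of 15 male-biased genes fell while 15 of 15 tested female-biased genes rose (medians -4.45 and 5.05). The part of these libraries and lists in the complement results was not tested beyond leaving the libraries out. Without both, C6 fell by 3.76 and C8a fell by 3.55 log2 units.

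The lectin pathway moved in both directions. Mbl1 and Mbl2 encode the mannose-binding lectins A and C, which recognise sugars on microbes. Mbl1 (chromosome 14, 41151458 to 41159601) was at 132, 200 and 294 CPM in AL and 79.1, 102 and 153 CPM in CR. Its ranges met only at the edges, through CR ZT18 2 (153 CPM), CR ZT6 2 (136 CPM) and AL ZT2 1 (132 CPM). Mbl1 fell by 0.94 ± 0.12 log2 units (edgeR adjusted p 1.05e-05). Mbl2 (chromosome 19, 30232942 to 30239687), in contrast, was at 157, 237 and 371 CPM in AL and 178, 420 and 567 CPM in CR. The ranges overlapped, with CR ZT6 2 (178 CPM) and CR ZT18 2 (290 CPM) lowest in CR, and Mbl2 rose by 0.74 ± 0.15 log2 units (edgeR adjusted p 0.00227). Per kilobase of exon, Mbl2 over Mbl1 had a median of 1.69 in AL (1.08 to 2.25) and 5.88 in CR (1.88 to 9.39), and only CR ZT6 2 (1.88) fell in the AL range.

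Masp2, the protease that the lectins activate (chromosome 4, 148602554 to 148615499), fell by 0.92 ± 0.14 log2 units (edgeR adjusted p 8.98e-05). It was at 57.3, 80.9 and 126 CPM in AL and 29.1, 42.8 and 64.1 CPM in CR, so that the highest CR and lowest AL libraries crossed. Masp2 overlaps Tardbp on the other strand and 52.5% of its 50-base words also occur in other annotated transcripts, and since the libraries carry no strand its reads are uncertain. Masp1, a second lectin protease, was low, at 2.57, 6.79 and 31.5 CPM in AL and 2.72, 7.02 and 41.8 CPM in CR, with a difference of 0.30 ± 0.31 (edgeR adjusted p 0.601).

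C3, the hub of all routes (chromosome 17, 57203970 to 57228136), rose. It was at 1383, 3358 and 6251 CPM in AL and 4193, 7113 and 8810 CPM in CR, a rise of 1.06 ± 0.18 log2 units (2.09-fold, edgeR adjusted p 0.000349). The overlap came from AL ZT22 2C (6251 CPM) and AL ZT6 1 (4941 CPM) on one side. On the other were CR ZT6 2 (4193 CPM), CR ZT18 2 (4695 CPM) and CR ZT6 1 (6242 CPM, just under AL ZT22 2C). C3 moved from rank 3 to rank 1 among the 40 genes by median CPM per kilobase, at 653 in AL and 1383 in CR. Cfb, factor B of the alternative pathway, was near the detection limit, at 0 to 3.52 CPM in AL and 0.11 to 3.18 CPM in CR, and 73% of its 50-base words are shared with the overlapping gene Gm20547.

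Of the genes at the start of the classical pathway, C1s1 and C2 fell slightly. C1s1, a protease of C1 (chromosome 6, 124530345 to 124542359), was at 122, 144 and 182 CPM in AL and 71.9, 102 and 146 CPM in CR, with overlapping ranges, and fell by 0.50 ± 0.12 log2 units (edgeR adjusted p 0.00827). C2 (chromosome 17, 34862604 to 34898265), the protease part of the C3 convertase, was at 14.4, 30 and 42 CPM in AL and 14.8, 20.3 and 33.2 CPM in CR, and fell by 0.40 ± 0.13 (edgeR adjusted p 0.044). The call of C2 was lost in 32 of 38 alternatives, among them leaving out any single library other than AL ZT18 1, CR ZT10 1 or CR ZT14 2, with differences from -0.74 to -0.06 over all alternatives. C4b, the partner of C2 in the convertase and the gene of highest level per length in this group, was at 351, 836 and 1589 CPM in AL and 515, 743 and 1204 CPM in CR, with a difference of -0.17 ± 0.16 (edgeR adjusted p 0.557). C1ra, the other C1 protease, differed by -0.09 ± 0.12 (edgeR adjusted p 0.712). Reads of C1s1 with C1s2, C1ra with C1rb, C4b with C4a and C2 with Gm20547 are uncertain, since 35.1%, 50.8%, 34.6% and 41.5% of the 50-base words of these members occur in other annotated transcripts. C3 over C4b, per kilobase, was 4.21 in AL (3.51 to 5.38) and 10.6 in CR (5.68 to 14.2), with no overlap.

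Among the plasma inhibitors of complement, C4bp fell and the other two did not pass. C4bp (chromosome 1, 130634773 to 130661632), which helps to dismantle the C4b-containing convertase, was at 179, 245 and 388 CPM in AL and 86.3, 113 and 168 CPM in CR, with no overlap. It fell by 1.12 ± 0.15 log2 units (2.17-fold, edgeR adjusted p 1.5e-05). Vtn, vitronectin, which blocks insertion of the attack complex, had the highest level per length of all 40 genes in AL. It was at 892, 2101 and 3963 CPM in AL and 1487, 2045 and 3594 CPM in CR, a difference of -0.04 ± 0.16 (edgeR adjusted p 0.951). Cfi, the protease that cuts C3b and C4b, differed by -0.06 ± 0.16 (edgeR adjusted p 0.896).

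**Figure D3:**
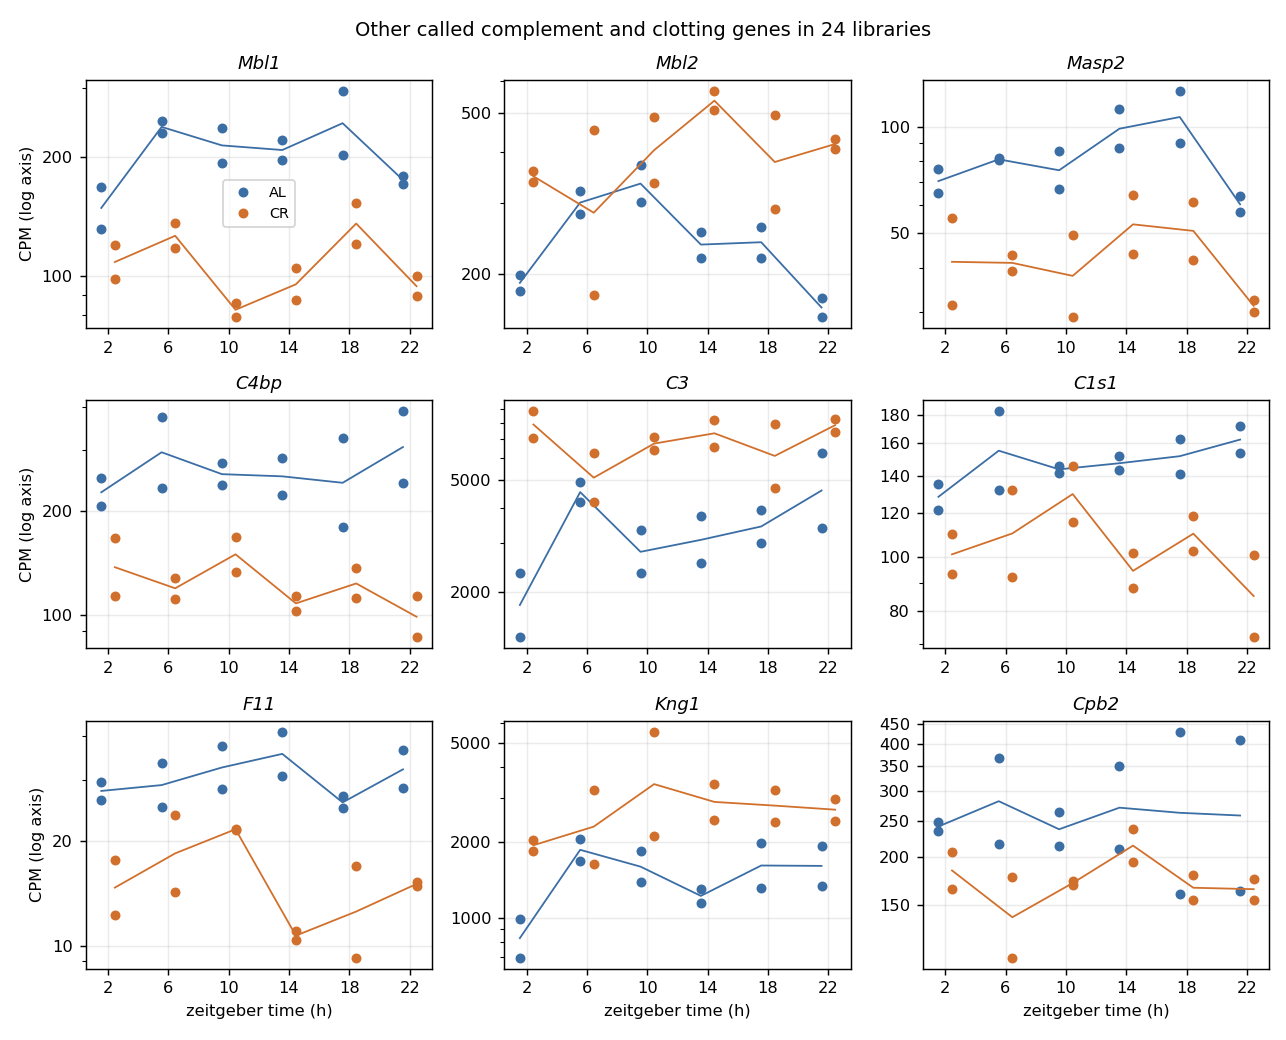
Levels of further called genes (CPM, log axis) by zeitgeber time, 1 point per library and lines through the geometric mean of the 2 libraries of a group, AL in blue and CR in orange. C3, Kng1 and Mbl2 lie mostly higher in CR and the other genes drawn mostly lower.

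The contact system, which starts clotting on negatively charged surfaces, held 1 gene that fell and 1 that rose. F11, the protease that passes the signal to factor IX (chromosome 8, 45241174 to 45262031), was at 24.8, 28.9 and 41.2 CPM in AL and 9.24, 15 and 23.8 CPM in CR, with no overlap. It fell by 0.99 ± 0.14 log2 units (1.99-fold, edgeR adjusted p 3.02e-05). Kng1, kininogen, the source of bradykinin (chromosome 16, 23057865 to 23082078), was at 694, 1362 and 2073 CPM in AL and 1647, 2454 and 5531 CPM in CR. The ranges overlapped, with CR ZT10 1 (5531 CPM) highest, and Kng1 rose by 0.93 ± 0.19 log2 units (1.91-fold, edgeR adjusted p 0.0016). Its paralog Kng2, with which 17.2% of the 50-base words of Kng1 are shared, rose by 0.91 ± 0.15 (edgeR adjusted p 0.000244). F12 and Klkb1, which activate each other on the surface, differed by 0.19 ± 0.14 and -0.09 ± 0.19 (edgeR adjusted p 0.416 and 0.823). Klkb1 has 42.7% of its words in other transcripts, so its reads are uncertain.

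None of the 4 vitamin K-dependent proteases passed the test, and their differences lay between -0.04 and 0.40. F2, prothrombin, the highest of them per length, was at 553, 996 and 1623 CPM in AL and 951, 1123 and 1755 CPM in CR, and its ranges overlapped (0.19 ± 0.14, edgeR adjusted p 0.396). F10, which cuts prothrombin, had the largest difference, 0.40 ± 0.15 (edgeR adjusted p 0.0876), and passed with DESeq2 (0.44, adjusted p 0.0271). F7, which binds tissue factor, differed by 0.26 ± 0.14 and F9, which is cut by F11, by -0.04 ± 0.14 (edgeR adjusted p 0.236 and 0.932). The cofactor F5 and F13b, the carrier subunit of the clot-stabilising factor XIII, did not pass either (0.31 ± 0.17 and 0.12 ± 0.19, edgeR adjusted p 0.242 and 0.767). F13b was at 38.5, 65.5 and 90.2 CPM in AL and 27.5, 61.7 and 155 CPM in CR, and F5 at 116, 157 and 341 CPM and 112, 197 and 529 CPM, with the CR range the wider in both.

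The 3 fibrinogen chains, encoded side by side on chromosome 3, did not pass. Fgg, the gamma chain and the highest per length, was at 986, 1447 and 3057 CPM in AL and 593, 1013 and 2012 CPM in CR (-0.43 ± 0.20, edgeR adjusted p 0.163). Fga was at 579, 951 and 2802 CPM in AL and 260, 544 and 1503 CPM in CR (-0.64 ± 0.23, edgeR adjusted p 0.0737), and Fgb differed by -0.26 ± 0.18 (edgeR adjusted p 0.37). All 3 were highest in AL ZT22 2C among AL libraries, the library richest in Saa1, and the CR libraries of ZT2 and CR ZT10 2 lay above most other CR libraries. Fga passed with edgeR when AL ZT18 1 (-0.71, adjusted p 0.0467), AL ZT22 2d (-0.74, adjusted p 0.0266) or CR ZT10 2 (-0.92, adjusted p 0.00127) was left out, and Fgg when CR ZT10 2 was (-0.60, adjusted p 0.0215). Fga also passed with DESeq2 (-0.60, adjusted p 0.0393) and with a covariate for ribosomal RNA reads (-0.67, edgeR adjusted p 0.0418). Among the 12 libraries with less ribosomal RNA the differences were larger, at -1.44 for Fga and -1.02 for Fgg. The diets shared only ZT10 and ZT18 in that set, so these values compare the diets at those time points only. AL ZT22 2C was the highest AL library for 14 of the 40 genes (C4b, Masp1, C3, Cfb, Hc, C8a, Cfi, C4bp, F9, Fga, Fgb, Fgg, Pros1 and Proz). The share of all tested genes that were highest in this library was not counted, so nothing particular to the 40 is read from it. Ribosomal RNA made up 61.3% of its reads, which left 6.76 M other reads, and the part of that share was not tested. The part of the acute phase transcripts in these levels was not tested beyond leaving out AL ZT22 2C and AL ZT10 1, singly and together. AL ZT14 2, also rich in acute phase transcripts, was left out only singly.

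**Figure D4:**
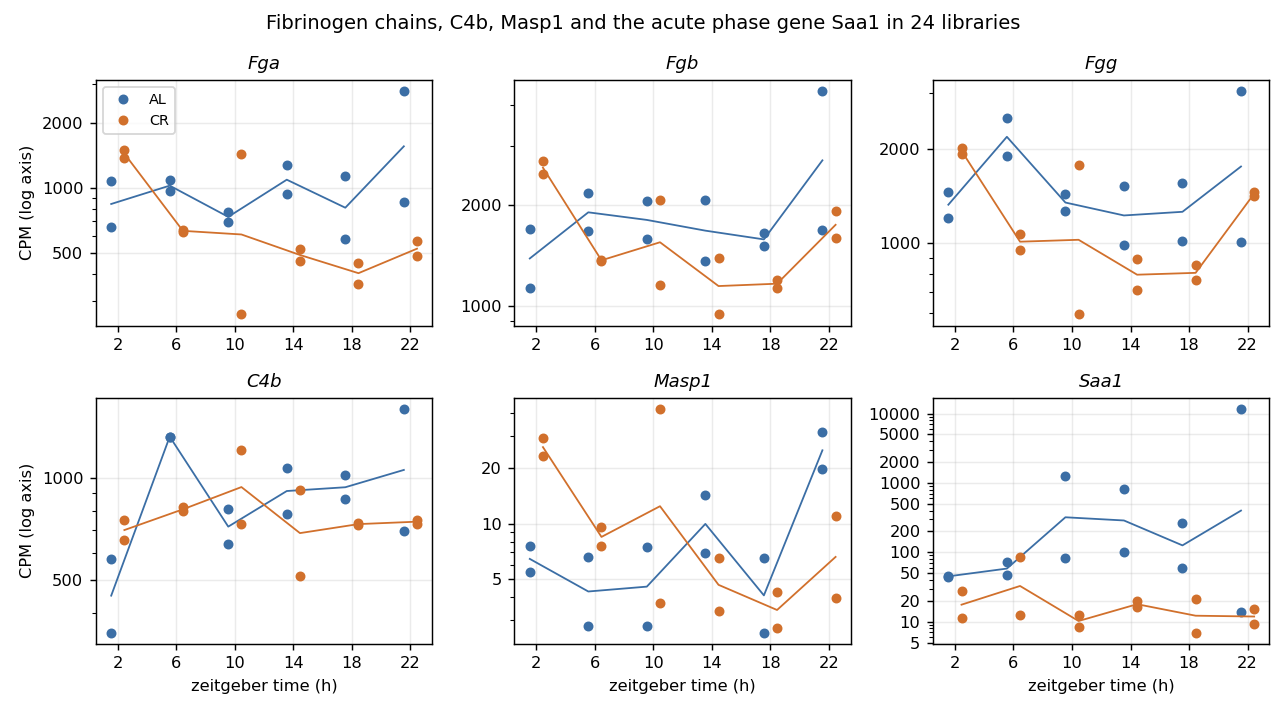
Levels of the 3 fibrinogen chains, C4b, Masp1 and the acute phase gene Saa1 (CPM, log axis) by zeitgeber time, 1 point per library and lines through the geometric mean of the 2 libraries of a group, AL in blue and CR in orange. AL ZT22 2C is the highest AL point in each panel, at 11604 CPM for Saa1, and for the fibrinogen chains and Masp1 the 2 CR libraries of ZT2 lie above most other CR points.

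Of fibrinolysis and its inhibitors, Cpb2 fell. Cpb2, also known as TAFI, a carboxypeptidase that slows clot dissolution (chromosome 14, 75242287 to 75283555), was at 160, 242 and 430 CPM in AL and 109, 174 and 237 CPM in CR, with overlapping ranges, and fell by 0.65 ± 0.18 log2 units (edgeR adjusted p 0.0218). Its call was lost without AL ZT14 1 (-0.58, edgeR adjusted p 0.0537), AL ZT18 2 (-0.50, 0.0648), AL ZT22 2C (-0.52, 0.0601) or CR ZT22 2 (-0.59, 0.0586). Plg, plasminogen, was at 892, 1406 and 2543 CPM in AL and 1116, 1561 and 1980 CPM in CR, a difference of 0.10 ± 0.16 (edgeR adjusted p 0.765). Serpinf2, the plasmin inhibitor, differed by 0.17 ± 0.18 (edgeR adjusted p 0.602). The 5 anticoagulants all failed the test, with differences from -0.17 to 0.29. Proc, protein C, the highest of them per length, was at 182, 436 and 771 CPM in AL and 284, 472 and 705 CPM in CR (0.10 ± 0.16, edgeR adjusted p 0.78). Serpinc1, antithrombin, differed by 0.29 ± 0.14 (edgeR adjusted p 0.174) and passed with DESeq2 (0.33, adjusted p 0.0281). Its reads are uncertain, since 33.6% of its 50-base words occur in other annotated transcripts. Serpind1 (heparin cofactor II), Pros1 (protein S) and Proz (protein Z) differed by -0.17 ± 0.14, 0.15 ± 0.17 and 0.08 ± 0.15 (edgeR adjusted p 0.488, 0.617 and 0.823).

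By median CPM per kilobase, Vtn (1035), Fgg (691) and C3 (653) led the 40 genes in AL, and C3 (1383), Vtn (1007) and Kng1 (755) led in CR. C6 went from rank 27 to rank 38, C8a from 21 to 33, C8b from 23 to 34 and C9 from 14 to 23. F9 (24.1), F7 (24.1) and Masp2 (24.5) had nearly the same median in AL, and their libraries overlapped.

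At single time points, where 2 libraries met 2, C6, C8a, C8b and C9 gave most of the calls, and C3, Mbl1, F11 and C4bp gave 1 each. At ZT2, 2 of the 40 passed (0.562% of all tested genes), with differences of 2.10 ± 0.46 for C3 and -3.25 ± 0.68 for C6 (edgeR adjusted p 0.033 and 0.0236). At ZT6 only C9 passed (0.387% of all tested genes), with a difference of -2.04 ± 0.41. At ZT10, 5 passed (0.742%), led by C6 (-3.46 ± 0.68) and C8a (-3.08 ± 0.72), with C8b, C9 and Mbl1. At ZT14, 5 passed (1.7%), led by C8a (-4.45 ± 0.77) and C6 (-3.97 ± 0.70), with C8b, C9 and F11. At ZT18, C8b (-2.32 ± 0.51) and C9 (-1.82 ± 0.41) passed (0.562%), and at ZT22, 5 passed (0.936%), led by C8a (-4.20 ± 0.76) and C6 (-4.16 ± 0.71), with C8b, C9 and C4bp. C6 had its smallest falls at ZT6 (-1.95 ± 0.64) and ZT18 (-1.98 ± 0.64), the time points of CR ZT6 2 and CR ZT18 2.

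These counts changed when single libraries were left out, those of other time points included. The low-count filter was applied anew each time, and such fits tested 16592 to 16838 genes against 15490. The part of the library and the part of the changed gene set cannot be told apart. Where a group was left with 1 library, that library is assumed to vary like the others. The ZT2 count was 1 without AL ZT2 1 or AL ZT10 2, 0 without AL ZT2 2, CR ZT2 1 or CR ZT2 2, and 3 without CR ZT6 1, CR ZT6 2, CR ZT18 1 or CR ZT18 2. The ZT6 count was 0 without AL ZT6 1, AL ZT6 2 or CR ZT6 1. The ZT10 count was 2 without AL ZT10 1, 0 without AL ZT10 2, 3 without CR ZT10 1 and 1 without CR ZT10 2. The ZT14 count was 1 without CR ZT14 1 and 3 without CR ZT14 2, and the ZT22 count was 0 without CR ZT22 1. The ZT18 count was 0 without AL ZT18 2 or CR ZT18 1, 4 without CR ZT18 2, and 1 without either library of AL ZT2, AL ZT10, CR ZT2 or CR ZT14.

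**Figure D5:**
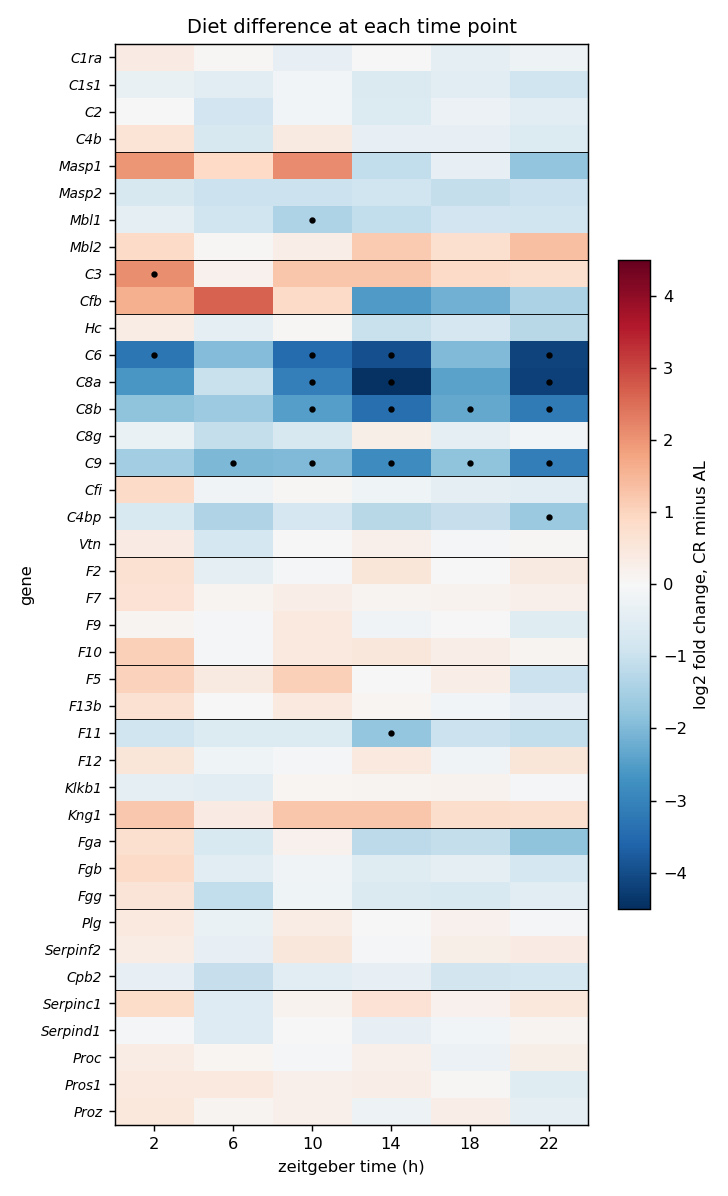
Difference between the diets at each zeitgeber time (columns, h) for the 40 genes (rows, by role) as log2 CR over AL in colour, with dots where the adjusted p was below 0.05. C6, C8a, C8b and C9 are lower at all 6 time points, down to -4.45 for C8a at ZT14.

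Whether a diet difference varied with time was tested directly, and 0 of the 40 genes passed (0% of all tested genes) in edgeR's quasi-likelihood test. Unadjusted p was below 0.05 for 5 of them (Masp1, Cfb, C8a, F5 and Fga), as for 8.63% of all tested genes. DESeq2 called 1, Masp1 (adjusted p 0.0217), limma-trend called 0, and edgeR called Masp1 (adjusted p 0.0461) without CR ZT10 1. A rhythm of 24 h passed in 0 of the 40 in AL (0.42% of all tested genes) and 0 in CR (1.94%), and 0 differed in rhythm between the diets (0% of all tested genes). Unadjusted p was below 0.05 for Mbl2 in AL, for Masp1, Cfb, Fga and Fgg in CR, and for Masp1 and Cfb in the difference. The same held for 10.4%, 17.4% and 6.49% of all tested genes, and nothing is read from these counts. DESeq2 called 0 in AL, 1 in CR (Cfb, adjusted p 0.0321) and 0 in the difference, and limma-trend called 0 in each. In edgeR, a CR rhythm was called for Cfb (adjusted p 0.0396) without CR ZT10 2 and for C8a (adjusted p 0.0213) without CR ZT18 2.

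The levels of Masp1 and Cfb moved with the share of reads in ribosomal RNA. In the 12 libraries with the lower share (1.02% to 28.9%, 6 of each diet) Masp1 was at 2.57, 3.83 and 7.60 CPM, and in the 12 with the higher share (34.1% to 62.2%, 6 of each diet) at 6.51, 12.7 and 41.8 CPM. Cfb was at 0 to 1.09 CPM in the first and 0.77 to 3.52 CPM in the second. C8a and Fga also had higher medians in the second set, at 136 and 277 CPM for C8a and 589 and 951 CPM for Fga. The C8a medians do not measure a shift, since each lies in the gap between the diets. In the first set the gap runs from CR ZT18 2 (110 CPM) to AL ZT6 1 (163 CPM). In the second it runs from CR ZT6 2 (209 CPM) to AL ZT14 1 (346 CPM). The first Fga median lies in such a gap as well, from CR ZT14 2 (522 CPM) to AL ZT2 1 (657 CPM). The part of this share in the time course of these genes was not tested. With the ratio of ribosomal RNA to other reads as a covariate, 3 of the 40 genes rose and 13 fell on the diet average (2293 of 15490 tested genes were called). Both sets of 12 libraries were fitted with additive terms for time and diet. The diets shared only ZT10 and ZT18 in the lower set and only ZT6 and ZT22 in the higher set. Other time points there held a single diet and add nothing to the diet term. A change of calls with this share cannot be told apart from the change of time points. Within the 12 libraries of lower share 3 rose and 11 fell (1744 of 16892 tested genes were called): C1s1, C2, F11 and Mbl2 no longer passed, and Hc, Fga, Fgg and Serpinf2 did. Within the 12 of higher share 0 rose and 3 fell (C6, C8b and C9), and the calls over all tested genes dropped as well, to 84 of 13956.

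The other genes of both systems were taken from 2 lists. Of 22 tested further complement genes, 1 rose and 8 fell, with a median of -0.63. Serping1, the C1 inhibitor, fell by 1.29 ± 0.17, C1qc by 1.24 ± 0.19 and C1qa by 0.96 ± 0.15 (edgeR adjusted p 1.39e-05, 0.000144 and 0.000194). C1qa, C1qb and C1qc encode the recognition part of C1, which in liver is known to be made mainly by macrophages, and of 13 Kupffer cell markers (resident macrophages) 9 fell and 1 rose, with sums of 189 to 589 CPM in AL and 122 to 218 CPM in CR. Clec4f, a defining Kupffer cell marker, was at 37.1 to 114 CPM in AL and 20.7 to 36.1 CPM in CR. The part of macrophages in the C1q levels was not tested. C1rl, a C1r-like protease, rose by 0.53 ± 0.15 (edgeR adjusted p 0.024), and C7, which joins C6 in the attack complex, was near the detection limit at 0 to 1.72 CPM. Of 25 tested further clotting and fibrinolysis genes, Kng2 rose and 5 fell, with a median of -0.19. F2r, a thrombin receptor, fell by 1.63 ± 0.22, Tfpi2 by 1.05 ± 0.18 and Serpina10, the protein Z-dependent inhibitor, by 0.81 ± 0.16 (edgeR adjusted p 2.48e-05, 0.000286 and 0.00133).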

How the data were processed

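Libraries of polysome-associated, poly(A)-selected RNA without strand were counted per gene by the authors. Per the submitters' processing notes they used FastQC, HTSeq and DESeq2 with GRCm38.p5, with versions not given, and the aligner is not given in the sources used here. The deposited files hold raw counts of reads, whole numbers without normalization, for 52636 genes, of which GENCODE named 52403. HTSeq leaves out reads that fit several genes in its usual modes, and its mode is not given in the sources used here.

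Tests on the deposited counts used R 4.3.3 and edgeR 4.0.16 (quasi-likelihood test, TMM normalization, filterByExpr with the 12 groups, 1 mean per group). The contrasts were the mean of 6 CR groups minus the mean of 6 AL groups, CR minus AL within a time point, and the variation of that difference with time, and rhythms were fitted as 1 cosine and sine of 24 h per diet. Alternatives used DESeq2 1.42.0, limma-trend in limma 3.58.1 (prior count 2), and other scalings and filters (none, or 1 CPM in 12 libraries). Further ones used covariates, subsets and leaving out each library. The low-count filter was applied anew to each reduced set of libraries, so the set of tested genes changed with it. Procedures were tested on simulated data, where edgeR and limma-trend, but not DESeq2, were held to a limit on false calls. The members, their roles, the other gene lists, the motifs and the libraries set apart were chosen with earlier results of these data known. Values were given by rule for called members and for the member of highest level per length in each role, and for the 3 called genes of smallest p in the complement and clotting lists. Serpina10, C1rl, Kng2, C7, Clec4f and Saa1 were named beside results. Shared words are the 50-base stretches of a gene's exons found in annotated transcripts of other genes. The depth, 13.8 to 60.8 M counted reads per library, sets the precision of low levels.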

Additional observations from a re-analysis of the deposited data

How the results depend on the processing

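Over 38 alternatives, 24 of them leaving out 1 library each, the 14 called genes kept the direction of their diet average, with 0 sign changes. C6, C8b and C9 were called in all 38. C8a, C4bp, C3, Kng1, Masp2 and Mbl1 lost their call in 1 alternative, the 12 libraries of higher ribosomal RNA share. There C3 differed by 0.51 and Kng1 by 0.44. C8a (-2.61), C4bp (-1.19), Masp2 (-0.96) and Mbl1 (-0.94) differed by about as much as over all libraries. The diets shared only ZT6 and ZT22 in that set, and only ZT10 and ZT18 in the set of lower share. In the fit of all libraries, C3 differed by 0.19 at ZT6 and 0.71 at ZT22, and Kng1 by 0.38 and 0.73. F11 and Mbl2 lost their call in both sets of 12 libraries, C1s1 in both and without a composition factor, Cpb2 in 8 and C2 in 32. Genes not called otherwise gained 23 calls in all, spread over 7 genes (Hc, C8g, F10, Fga, Fgg, Serpinf2 and Serpinc1). The number of members that rose was 5 with DESeq2 and 0 in the 12 libraries of higher ribosomal RNA share, where 3 fell. Over all genes 84 of 13956 were called in that set, against 1744 of 16892 in the 12 libraries of lower share. The cause of these and the following changes was not tested. With DESeq2, the calls numbered 5 at ZT2, 4 at ZT6, 9 at ZT14 and 10 at ZT22, with 1 for the variation with time and 1 CR rhythm. Limma-trend gave 1 at ZT2. Without a low-count filter there were 6 at ZT2, 4 at ZT6, 4 at ZT18, 8 at ZT22, 5 for the variation with time, and 1, 2 and 2 for the AL rhythm, the CR rhythm and their difference. The stricter filter gave 0 at ZT18. Without a composition factor the calls were 0 at ZT6, 3 at ZT10 and 0 at ZT18, and the ribosomal RNA covariate gave 0 at ZT6. Without CR ZT6 2 and CR ZT18 2 they were 4 at ZT2, 3 at ZT6 and 4 at ZT18, and without AL ZT22 2C and AL ZT10 1 they were 3 at ZT10, 1 at ZT18 and 3 at ZT22. Leaving out single libraries gave 3 to 3 members that rose and 9 to 13 that fell, and calls of 0 to 3 at ZT2, 0 to 1 at ZT6, 0 to 5 at ZT10, 1 to 6 at ZT14, 0 to 4 at ZT18 and 0 to 6 at ZT22. The variation with time and the CR rhythm each gave 0 to 1, and the AL rhythm and rhythm difference 0 to 0. The scalings moved the median of all genes by less than 0.1 log2 units. With the replicate number as a block, 3 members rose and 10 fell. The numbers gave no sign of pairing: over 55 pairs of groups, deviations of libraries numbered 1 correlated between -0.254 and 0.514 (median -0.003), above 0.1 in 16.4%.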

Other observations

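Genes of the acute phase response did not all follow the complement genes. Of 18 tested acute phase markers, 5 fell and 2 rose in CR on the diet average, with a median log2 difference of -0.29 (edgeR quasi-likelihood test, adjusted p after Benjamini and Hochberg). Saa4 fell by 1.30 ± 0.15, Saa1 fell by 4.09 ± 0.65 and Saa2 fell by 4.01 ± 0.67 log2 units (SE). Saa1 had medians of 77.3 CPM in AL and 13.9 CPM in CR, and Saa2 of 37.8 and 9.23 CPM. AL ZT22 2C alone held 11604 CPM of Saa1 and 14450 CPM of Saa2, so both falls rest in part on that library. Orm3 rose by 1.69 ± 0.33 and Lbp, which binds bacterial lipopolysaccharide, by 0.60 ± 0.14. Summed levels ran from 4216 to 58319 CPM in AL, highest in AL ZT22 2C, and from 7774 to 11398 CPM in CR.

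Of 12 stellate cell and fibroblast markers 5 rose and 0 fell, and decorin (Dcn) rose by 0.87 ± 0.16. Of 12 endothelial markers 2 rose and 1 fell, with Lyve1 higher by 1.17 ± 0.22. Of 9 tested platelet and erythroid markers 0 rose and 2 fell, with a median of 0.31. Alas2, an enzyme of haem synthesis in red cells, fell by 1.87 ± 0.21. The globin genes of red cells, Hba-a1, Hba-a2, Hbb-bs and Hbb-bt, differed the other way, by 0.53, 0.53, 0.41 and 0.31, and did not pass the test. Of 10 tested T, B and NK cell markers 0 rose and 2 fell (Cd4 fell by 2.47 ± 0.40), at summed levels of 5.59 to 36.5 CPM in AL and 2.37 to 19.2 CPM in CR. Of 14 hepatocyte markers 2 rose and 1 fell.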
